A study of Mus musculus with 18 samples.

Results

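Primary (azurophil) granules are the first granules that neutrophil precursors make. They are filled at the promyelocyte stage with myeloperoxidase and with serine proteases held on the proteoglycan serglycin. Transcription of the myeloperoxidase and serine protease genes is shut down as the cells mature further. Later stages fill the secondary and tertiary granules with other proteins. The 7 genes described here are Mpo, Elane, Prtn3, Ctsg, Prss57, Ms4a3 and Srgn, taken by name as genes of this stage from the 22608 genes that the deposited tables hold between them. All 7 were listed in both tables and all 7 passed the filter on low values in both.

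Bulk RNA sequencing was done on mouse bone marrow cells of 3 Fabp4 genotypes: homozygous knockout (KO), heterozygous knockout (HET) and wild type (WT). Fabp4 encodes a fatty acid binding protein. The labels describe 1 set as sorted from vitro bone marrow, called in vitro here (3 KO, 3 HET and 3 WT libraries), and 1 as sorted from bone marrow (3 KO, 2 HET and 3 WT libraries used, with HET replicate 2 not analysed here). The labels give neither the sorted population nor the culture conditions, strain, age or knockout construct, and do not say whether each library came from its own mouse, so the p-values reflect how far these libraries differ from one another, which may be technical.

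Values are FPKM (fragments per kilobase of transcript, scaled to the mapped fragments of a library), which allow for transcript length and carry no counts, so the depth of each library is not known. In vitro, 17516 to 17892 genes were above 0 in KO, 17799 to 18029 in HET and 16779 to 17992 in WT libraries. Bone marrow libraries had 6560 to 8519 in KO, 3633 and 5209 in HET and 8194 to 8526 in WT. Spearman coefficients between libraries across genes were 0.962 to 0.970 in vitro and 0.427 to 0.621 in bone marrow, so bone marrow values are far less repeatable. Fabp4 itself was listed at 0 in all 3 KO libraries in vitro, at 0, 0.0676 and 0 FPKM in HET and at 0, 0.0326 and 0.330 FPKM in WT, levels too low to check the labels, and it was not analysed in bone marrow. In bulk RNA, fewer cells of a type and less RNA per cell cannot be told apart. Both sets held neutrophil lineage transcripts. In vitro, mast cell and basophil markers (11 of 12 listed) summed to 1687 to 2693 FPKM in KO, 2633 to 2884 in HET and 1351 to 3501 in WT. Eosinophil markers (9 of 9) summed there to 1241 to 1688 FPKM in KO, 1463 to 2877 in HET and 2270 to 2985 in WT. Ctsg and Srgn are also made by mast cells. In bone marrow those lists (4 of 12 and 5 of 9 listed) summed to at most 124 and 258 FPKM in any library, and all 5 eosinophil markers were at 0 in both HET libraries.

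The members fall into 3 kinds. Mpo encodes myeloperoxidase, the heme enzyme that makes hypochlorous acid. Elane (neutrophil elastase), Prtn3 (proteinase 3), Ctsg (cathepsin G) and Prss57 (neutrophil serine protease 4) are the serine proteases. Srgn encodes the core protein of serglycin, the proteoglycan that binds granule proteases, and Ms4a3 encodes a membrane protein used in mice to mark granulocyte-monocyte progenitors. On the mouse genome (GRCm38.p6, the assembly that mm10 holds) Prtn3 and Elane are neighbours on chromosome 10, with 3137 bases between them, and Prss57 lies 84982 bases from Prtn3. Mpo is on chromosome 11, Ctsg on chromosome 14, Ms4a3 on chromosome 19, and Srgn on chromosome 10 outside that cluster, at chr10:62493833-62527445. The annotated span of Prss57 overlaps the ends of Fstl3 and Palm, and that of Mpo overlaps the long noncoding RNA gene Gm34064. Strand use in counting is not given in the sources used here, so reads from these overlaps cannot be told apart.

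The 250 bases upstream of the start of the 4 most abundant enzyme genes are shown. Of these, Mpo, Elane and Prtn3 moved together across the in vitro libraries described next. Prss57, which had no promoter entry, moved with them. Sequences are from RefSeq, GRCm38.p6, 5′ to 3′ on the strand of the gene. Capitals mark AGGAAGT, a PU.1 motif, and AACGG, a MYB motif.
Mpo, chr11:87793534-87793783 (+): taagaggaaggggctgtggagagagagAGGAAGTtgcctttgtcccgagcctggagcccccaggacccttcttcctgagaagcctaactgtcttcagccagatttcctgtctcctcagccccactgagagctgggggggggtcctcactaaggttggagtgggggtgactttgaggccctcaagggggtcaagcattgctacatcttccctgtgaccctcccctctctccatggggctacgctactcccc
Elane, chr10:79886062-79886311 (+): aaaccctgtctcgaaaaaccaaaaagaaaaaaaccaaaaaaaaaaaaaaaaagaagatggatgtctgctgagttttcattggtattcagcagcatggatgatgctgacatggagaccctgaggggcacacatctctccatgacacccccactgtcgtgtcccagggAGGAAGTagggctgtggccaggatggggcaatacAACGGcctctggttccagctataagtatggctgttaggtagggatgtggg
Prtn3, chr10:79879417-79879666 (+): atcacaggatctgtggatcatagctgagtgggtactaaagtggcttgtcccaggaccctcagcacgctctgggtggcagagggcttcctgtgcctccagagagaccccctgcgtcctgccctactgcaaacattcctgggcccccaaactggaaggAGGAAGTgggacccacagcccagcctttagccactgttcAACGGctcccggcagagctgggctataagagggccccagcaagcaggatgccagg
Ctsg, chr14:56102575-56102824 (−): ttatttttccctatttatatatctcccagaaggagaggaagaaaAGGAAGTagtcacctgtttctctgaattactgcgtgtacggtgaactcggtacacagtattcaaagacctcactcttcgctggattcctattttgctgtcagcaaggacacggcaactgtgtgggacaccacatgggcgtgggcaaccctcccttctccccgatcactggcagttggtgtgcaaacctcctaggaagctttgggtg
Both strands were searched. AGGAAGT was found in 4 of the 6 members with a promoter entry, in the windows printed above, against 8.80% of the 27025 genes in the table, with windows of the same length. AACGG was found in 2 of 6, Elane and Prtn3, against 16.5% of all genes. In Elane the PU.1 letters began 84 bases and the MYB letters 50 bases upstream of the start. In Prtn3 they began 94 and 55 bases upstream, so this neighbouring pair carries both motifs in the same order at similar spacing. TATAA was found in 4 of 6 members (25.8% of all genes), TGTGGT, a RUNX motif, in 2 (15.9%) and TTNNGNAA, a C/EBP motif, in 2 (40.3%), with no overlap between PU.1 and MYB matches. These matches describe letters and not binding.

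In vitro, the question was whether the primary granule genes differ by Fabp4 genotype. None of the 7 was called in any of the 3 comparisons, but the 3 KO libraries were split. KO 1 and KO 3 held the lowest Mpo, Elane, Prtn3 and Prss57 values of the 9 libraries and KO 2 the highest. Mpo stood at 1224, 2074 and 1186 FPKM in KO libraries 1, 2 and 3, against 1729, 1658 and 1646 in WT. The HET libraries had 1705, 1623 and 1677 FPKM of Mpo. The coefficient of variation of Mpo was 33.6% among KO, 2.52% among HET and 2.68% among WT libraries.

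Elane, the elastase gene, showed the same split more widely. It stood at 895, 2062 and 870 FPKM in KO libraries, at 1365, 1366 and 1574 in HET and at 1460, 1512 and 1638 in WT. Prtn3 had 771, 1393 and 764 FPKM in KO libraries, 880, 925 and 1018 in HET and 1006, 919 and 1083 in WT. For Mpo, Elane and Prtn3 the KO group overlapped WT and HET through KO 2 alone, and both other KO libraries lay below every HET and WT library.

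Ctsg moved less. It had 1122, 1661 and 1221 FPKM in KO, 1212, 1250 and 1218 in HET and 1211, 1273 and 1490 in WT, so that KO 3 lay inside the HET and WT ranges. Prss57, the least abundant protease, had 26.1, 36.7 and 26.1 FPKM in KO, 29.4, 27.1 and 29.4 in HET and 31.7, 30.1 and 28.6 in WT. The 3 genotypes overlapped for both genes, and KO 2 was again the highest of the 9 libraries.

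The other 2 members are not enzymes. Ms4a3 had 250, 322 and 265 FPKM in KO, 321, 290 and 299 in HET and 279, 296 and 326 in WT, so that KO 1 and KO 3 were again the lowest while KO 2 lay inside the WT range. Srgn had 704, 751 and 750 FPKM in KO, 749, 744 and 720 in HET and 627, 800 and 943 in WT. For Srgn the spread was in WT, where WT 1 was the lowest and WT 3 the highest of the 9 libraries, and KO 2 did not stand apart.

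**Figure D1:**
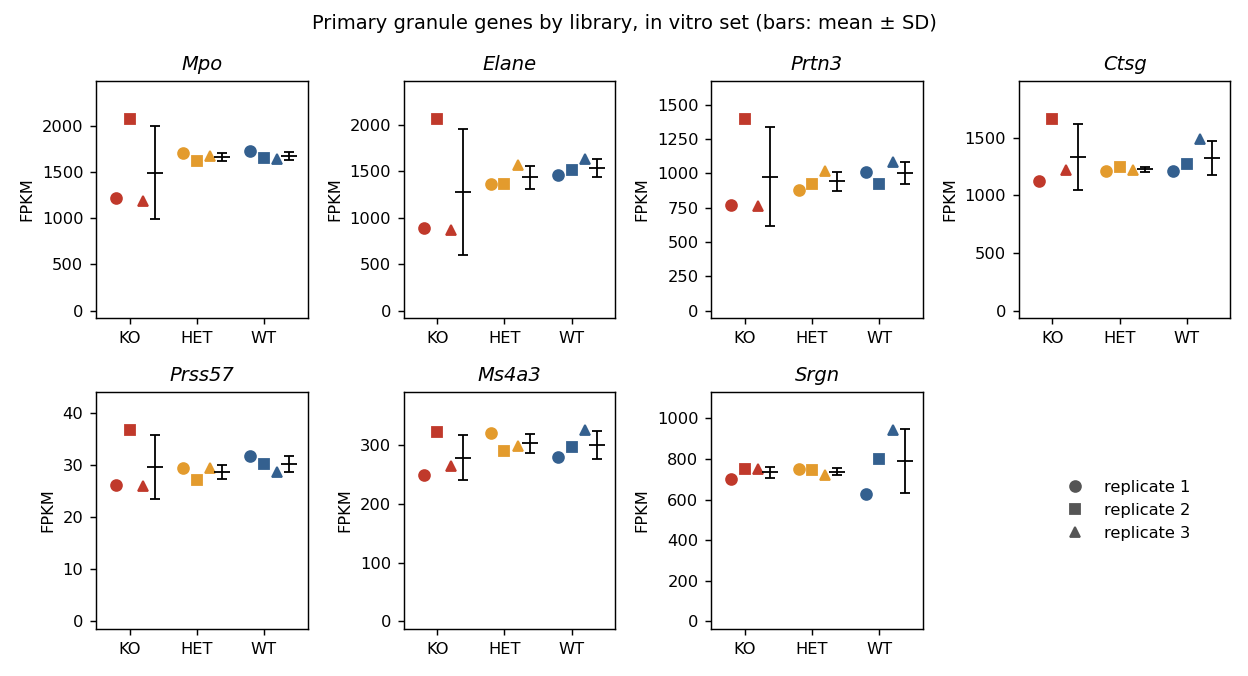
FPKM of the 7 primary granule genes in each in vitro library (points, shaped by replicate number), with the mean ± SD of the 3 libraries of each genotype (bars). KO 1 and KO 3 lie below all HET and WT libraries for Mpo, Elane, Prtn3 and Prss57, and KO 2 lies above them.

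With all 9 libraries, limma on log2(FPKM + 1), a scale that understates changes of low values, called 0 of 7 members in KO against WT at a Benjamini-Hochberg adjusted p under 0.05. In that comparison 2.99% of the 10877 genes tested were called. No member had an unadjusted p under 0.05, beside 19.4% of genes. Mpo averaged 1495 ± 502 FPKM in KO and 1678 ± 45.0 in WT (SD, n = 3 each), a log2 change of -0.22 (95% interval -0.58 to 0.15, limma adjusted p = 0.510). Elane averaged 1275 ± 681 FPKM in KO and 1536 ± 91.8 in WT, a log2 change of -0.39 with a standard error of 0.27 (adjusted p = 0.468). The 95% interval for Elane ran from 0.50 to 1.16 times the WT level. The log2 changes of the other 5 were -0.10 (Prtn3), 0.00 (Ctsg), -0.04 (Prss57), -0.11 (Ms4a3) and -0.09 (Srgn), with limma adjusted p of 0.562 to 0.990. The median over the members was -0.10, beside 0.04 over all genes tested.

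KO 2 decided these values. Each library was left out in turn, and KO 2 is described because it was the highest for these genes, so the following p-values are conditional on the members' own values and are no independent test. With KO 2 left out, limma called 3 of 7 members lower in KO than in WT, beside 2.17% of 10847 genes called lower in that fit. Elane fell by 0.80 on the log2 scale, to 0.575 times the WT level (95% interval of the log2 change -0.98 to -0.62, limma adjusted p = 0.00166). Mpo fell by 0.48 (-0.61 to -0.34, adjusted p = 0.00383), and Prtn3 fell by 0.38 (-0.57 to -0.19, adjusted p = 0.0392). Ctsg (-0.17), Prss57 (-0.20), Ms4a3 (-0.22) and Srgn (-0.10) did not pass, with limma adjusted p of 0.141 to 0.675. Leaving out any of the other 8 in vitro libraries called no member. With 2 KO libraries left, this fit borrows its spread from the other genotypes.

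**Figure D2:**
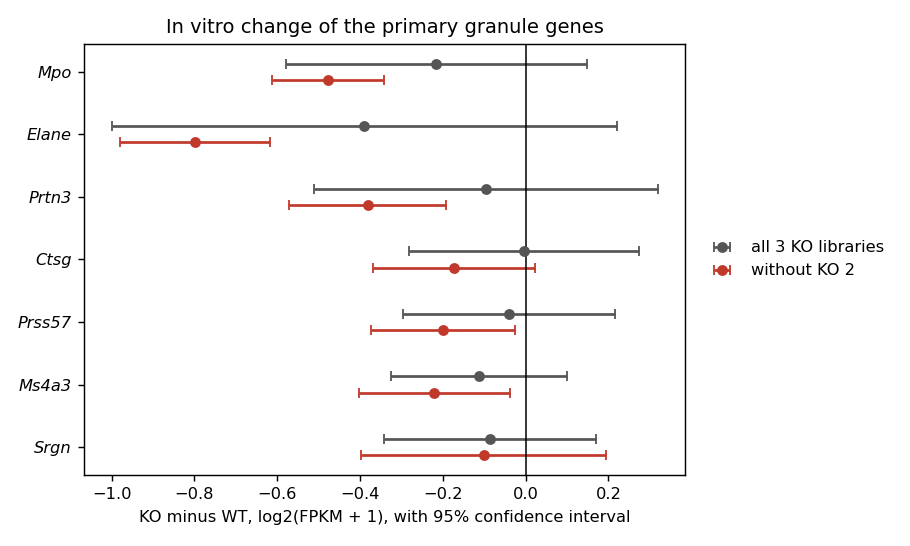
Log2 change of each member in KO against WT in vitro, on log2(FPKM + 1), with 95% confidence intervals from limma, for all 3 KO libraries (grey) and without KO 2 (red). The red intervals of Mpo, Elane and Prtn3 lie below 0, as do those of Prss57 and Ms4a3, whose adjusted p were 0.158 and 0.141.

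KO 2 also stood apart from KO 1 and KO 3 in other genes, though not always from the HET and WT libraries. Mast cell and basophil markers summed to 2387, 1687 and 2693 FPKM in KO libraries 1, 2 and 3. The 19 later granule genes summed to 1767, 2656 and 1790 FPKM, and the granulocyte-monocyte progenitor genes to 1511, 1956 and 1540 FPKM. The mast cell sum of KO 2 lay inside the WT range (1351 to 3501 FPKM) and below the HET range (2633 to 2884). Its later granule sum lay inside the HET range (2514 to 4784 FPKM) and above the WT range (743 to 2006). Its progenitor sum lay above the HET (1704 to 1739 FPKM) and WT (1590 to 1836 FPKM) ranges. In KO libraries 1, 2 and 3 Cebpe, a transcription factor that granulocyte precursors need to mature, stood at 77.7, 128 and 77.6 FPKM. Gfi1, a repressor needed for neutrophil development, stood there at 35.3, 55.9 and 33.6 FPKM. Without KO 2, Gstm1 (log2 change -0.74), P4hb (-0.37) and Arsb (-0.63) were also called lower in KO than in WT, and Klf4, Nbeal2, Padi4, Flt3 and Chst15 higher (0.37 to 0.92), with limma adjusted p of 0.00186 to 0.0405. Gstm1 encodes a glutathione transferase, P4hb protein disulfide isomerase, and Arsb a lysosomal sulfatase. The genes just named were picked after their values were seen, and their part in the members' values was not tested.

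HET libraries were close to WT for every member. In HET against WT, limma called 0 of 7 members, beside 3.68% of 10877 genes. None had an unadjusted p under 0.05, beside 23.4% of genes. The log2 changes ran from -0.11 (Ctsg) to 0.02 (Ms4a3), with adjusted p of 0.653 to 0.982. Mpo averaged 1668 ± 42.0 FPKM in HET and 1678 ± 45.0 in WT (SD, n = 3 each), with an interval of the log2 change of -0.37 to 0.36. The model shares 1 spread per gene among the 3 genotypes, so intervals and p-values here also carry the spread among KO libraries. The standard error for Mpo was 0.166 both here and in KO against WT. In KO against HET, limma called 0 of 7 members, beside 1.99% of genes. Again none had an unadjusted p under 0.05, beside 13.2% of genes. The log2 changes ran from -0.29 (Elane) to 0.10 (Ctsg), with adjusted p of 0.676 to 0.999. Without KO 2 this comparison called 2 of 7 members lower, beside 1.52% of genes called lower. KO 2 was left out for its values in these members, so the p-values of this fit are conditional and no independent test. Elane fell by 0.70 (limma adjusted p = 0.00240) and Mpo fell by 0.47 (adjusted p = 0.00388), while Prtn3 had a log2 change of -0.29 (adjusted p = 0.152).

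The order of the members by mean FPKM in vitro was Mpo, Elane, Ctsg, Prtn3, Srgn, Ms4a3 and Prss57. Each gene exceeded the next in all 9 libraries, except that Elane exceeded Ctsg in 7 of 9, the exceptions being KO 1 and KO 3. The mean of Mpo was 1.14 times that of Elane, while the mean of Ms4a3 was 9.98 times that of Prss57. Within a library, Mpo ranked 43 to 80 and Elane 45 to 101 among all genes by FPKM, and Prss57 ranked 1983 to 2702. The 7 genes together took 1.02, 1.59 and 1.03% of summed FPKM in KO, 1.30, 1.27 and 1.36% in HET and 1.30, 1.29 and 1.33% in WT.

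The ratios between members within a library, which do not depend on library scaling, showed which genes moved together. Prtn3 to Mpo was 0.630, 0.672 and 0.644 in KO, 0.516, 0.570 and 0.607 in HET and 0.581, 0.554 and 0.658 in WT, so the pair kept its ratio in KO 2 and in the other KO libraries alike. Elane to Mpo was 0.731, 0.994 and 0.733 in KO, 0.800, 0.842 and 0.939 in HET and 0.844, 0.911 and 0.995 in WT. Elane was therefore lower relative to Mpo in KO 1 and KO 3 than in any other library. Ctsg to Elane was 1.25, 0.806 and 1.40 in KO, 0.888, 0.915 and 0.774 in HET and 0.830, 0.842 and 0.909 in WT, above 1 in KO 1 and KO 3 only.

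Across the 9 in vitro libraries, the log2 values of Mpo and Elane had a Pearson r of 0.97 (Spearman 0.63), and of 0.83 without KO 1 and KO 3. Mpo and Prtn3 had 0.88 (Spearman 0.65), and 0.85 without KO 1 and KO 3. Mpo and Prss57 had 0.87 (Spearman 0.95), and 0.95 without KO 1 and KO 3. The 15 pairs of members other than Srgn had r of 0.60 to 0.97, or 0.36 to 0.96 without the 2 libraries farthest from the median. The 6 pairs with Srgn had r of -0.10 to 0.54, or -0.20 to 0.69 without those 2 libraries, so the ranges of the 2 kinds of pair overlap. These are descriptions over libraries that share KO 2, and carry no p. Among 7273 genes with a mean of at least 5 FPKM, the 5 whose pattern was most like that of Mpo were Lta4h (r = 0.970), Tmem234 (0.960), Plod3 (0.954), Hsd11b1 (0.924) and Gstm1 (0.917). For the mean z-score of the 7 members they were Msrb1 (0.959), Plpp2 (0.958), Rplp0 (0.956), Arl11 (0.955) and Tmed3 (0.944). For Srgn they were Cd53 (0.966), Frat1 (0.948), Rabl3 (0.948), ND2 (0.948) and Plp2 (0.939), none of which was on the other lists. Lta4h, the leukotriene A4 hydrolase gene, had 197, 293 and 193 FPKM in KO libraries, which is the KO 2 split of Mpo.

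The annotated neighbours ranged widely in level. Cfd, the complement factor D gene beside Elane, averaged 0.355 FPKM over the 9 libraries, and Lpo, the lactoperoxidase gene beside Mpo, 0.00470 FPKM. Epx, the eosinophil peroxidase gene near Mpo, had a log2 change of -0.89 in KO against WT (limma adjusted p = 0.0512). Mcpt8, a basophil protease gene beside Ctsg, averaged 987 FPKM in vitro and had a log2 change of -0.13 (adjusted p = 0.846). Among the neighbours tested, Rnf126 near Prss57 fell in KO against WT by 0.48 (adjusted p = 0.0437), and Tspoap1 near Mpo rose in HET against WT by 0.72 (adjusted p = 0.0214).

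Genes that make, process and pack the members were followed as lists. For maturation of myeloperoxidase, none of 8 endoplasmic reticulum chaperone genes and none of 8 heme synthesis genes was called in any in vitro comparison, with smallest limma adjusted p of 0.0567 and 0.0730. Serine protease zymogens are activated by cathepsin C (Ctsc), and serpins and Slpi inhibit the active enzymes. Of the 7 tested genes of that list, 0 were called in KO against WT. Ctsl, a lysosomal cysteine protease gene, rose in HET against WT by 0.34 (limma adjusted p = 0.0223), a call lost without HET 1, HET 2, HET 3 or WT 2 (adjusted p up to 0.101), with median-ratio factors (0.0508) and in a fit of the compared groups alone (0.0575). Ctsc had 21.1, 20.6 and 21.7 FPKM in KO, 27.0, 29.0 and 28.3 in HET and 20.3, 24.0 and 25.2 in WT. It fell in KO against HET by 0.39 (adjusted p = 0.0402). Those groups did not overlap for Ctsc, nor for 22.4% of all genes tested. The call was lost without any of the 6 KO or HET libraries or WT 2 (adjusted p up to 0.180). It was also lost with no filter (0.0740), quantile normalization (0.0506) and median-ratio factors (0.0630).

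Of 14 tested genes for serglycin glycosaminoglycan chains, 0 were called in KO against WT and 1 rose in HET against WT (Chpf2, a chondroitin polymerizing factor, by 0.59, limma adjusted p = 0.0276). Of 17 granule sorting genes, 0 were called in KO against WT and 1 rose in HET against WT (Hps6, by 0.51, adjusted p = 0.0114). The call of Chpf2 was lost without HET 1, HET 2, HET 3, WT 2 or WT 3 (adjusted p up to 0.0938) or with no filter (0.0711), and that of Hps6 without HET 2, HET 3 or WT 2 (up to 0.0631). Neither list had a call in KO against HET.

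Among 13 tested lysosomal proteins that primary granules also hold, Lyz2, the lysozyme gene, had 366, 505 and 349 FPKM in KO, 591, 720 and 739 in HET and 242, 278 and 320 in WT. The HET libraries were above all others. Lyz2 rose in HET against WT by 1.29 (limma adjusted p = 4.9e-04), and kept that call whichever library was left out. It fell in KO against HET by 0.76 (adjusted p = 0.0191), a call lost without KO 1, KO 3, HET 2 or HET 3 (adjusted p up to 0.112) or with no filter on low values (0.0713).

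Of 14 transcription factors of the promyelocyte stage, Klf4, a factor of monocyte development in mice, rose in KO against WT by 1.03 (limma adjusted p = 0.00231) and in HET against WT by 1.02 (adjusted p = 0.00134). Klf4 had 1.99, 3.09 and 2.46 FPKM in KO, 2.46, 2.10 and 2.80 in HET and 0.649, 0.851 and 0.609 in WT, with WT below all other libraries. Both calls held in all 9 fits that left out a library. Cebpd rose in HET against WT by 0.93 (adjusted p = 0.00988), lost without HET 1 or HET 3 (up to 0.0628). Cebpa, needed to form granulocyte-monocyte progenitors, rose by 0.58 (adjusted p = 0.0391), a call lost in 7 of 9 such fits (KO 1, KO 3, HET 1, HET 2, HET 3, WT 1 or WT 2 left out, adjusted p up to 0.135). The call of Cebpa was also lost with no filter (0.101), median-ratio factors (0.0643) and only the compared groups (0.0729). The other 11 factors, Spi1 (which encodes PU.1), Myb, Runx1, Cebpe and Gfi1 among them, were not called in any in vitro comparison.

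Of 18 progenitor genes, Flt3, a growth factor receptor gene, rose in KO against WT by 0.64 (limma adjusted p = 0.0168), a call lost without KO 1, KO 3 or WT 2 (up to 0.0754). In HET against WT 4 receptor genes rose: Csf2ra by 0.60, Csf3r by 0.57, Csf2rb by 0.56 and Il6ra by 0.80, with adjusted p of 0.00912 to 0.0411. Each of these calls was lost without HET 2 or HET 3, for Csf2rb also without HET 1, KO 3 or any WT library, and for Il6ra also without HET 1, KO 1, KO 3, WT 2 or WT 3 (adjusted p up to 0.162). Il6ra was also lost with a pseudocount of 0.1 (0.0587), TPM (0.0505), only the compared groups (0.0670) and no filter, and Csf2rb with no filter (0.105) and median-ratio factors (0.0531). In KO against HET, Csf2rb fell by 0.68 (adjusted p = 0.0212), lost without HET 1, HET 2 or HET 3 (up to 0.102) or with no filter (0.0730). Flt3 rose there by 0.60 (adjusted p = 0.0232), a call lost without any of the 6 KO or HET libraries (up to 0.0946).

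Calls among the later granule genes were made in all 3 in vitro comparisons, and whether they differ from the primary granule genes as a group was not tested. The list holds secondary and tertiary granule genes together with genes of other proteins. Among these are S100a8 and S100a9, cytosolic proteins made at the same stages, and also Padi4 and Ltb4r1. In HET against WT 9 of 18 tested genes rose and 0 fell (median log2 change 1.29, beside 3.68% of all genes called), while 0 of 7 primary granule genes were called (median -0.08). Mmp8, the neutrophil collagenase gene, had 45.5, 52.3 and 48.1 FPKM in HET and 7.98, 9.09 and 9.27 in WT, and rose by 2.34 (limma adjusted p = 4.6e-05). Cybb, a phagocyte oxidase gene, rose by 1.63 (adjusted p = 4.6e-05), Wfdc21 by 1.62 (adjusted p = 0.00119) and Itgb2l, an integrin gene, by 1.28 (adjusted p = 0.00988). Itgam also rose, by 0.47 (adjusted p = 0.0246), a call lost without HET 2, HET 3, WT 2 or WT 3 (up to 0.0943), with no filter (0.0667) or with only the compared groups (0.0551). The calls of Mmp8, Cybb and Wfdc21 held whichever library was left out, and that of Itgb2l was lost without HET 2 or HET 3 (up to 0.0631). In the same comparison 6 of 8 tested monocyte and macrophage markers rose, their list (14 of 15 listed) summing to 163 to 200 FPKM in HET and 82.9 to 119 in WT. Their part in the rise was not tested.

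In KO against WT 2 of 18 tested genes of the later granule list rose, beside 2.99% of all genes called. Itgam, an integrin gene, rose by 0.47 (limma adjusted p = 0.0280) and Padi4, which encodes a histone-modifying enzyme, by 0.43 (adjusted p = 0.0167). The call of Itgam was lost without KO 1, KO 2, KO 3, WT 2 or WT 3 (adjusted p up to 0.113) or with no filter (0.0763), and that of Padi4 without KO 1 or WT 2 (up to 0.0706). In KO against HET 6 of 18 fell and 0 rose, beside 1.99% of all genes called. Mmp8 fell there by 2.31 (adjusted p = 6.2e-05), Cybb by 1.37 (adjusted p = 1.9e-04) and Wfdc21 by 1.40 (adjusted p = 0.00356), and these calls held whichever library was left out. The ratio of summed FPKM of the 7 primary to the 19 later granule genes was 2.83, 3.12 and 2.84 in KO, 2.49, 1.54 and 1.37 in HET and 8.54, 3.75 and 3.57 in WT. All HET libraries lay below all KO libraries, and all KO libraries below all WT libraries, of which WT 1 was far the highest. KO 2, high in both sums, did not stand apart in this ratio.

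In bone marrow, no member was called by genotype, and Elane rather than Mpo led the group. Elane had 3923, 4234 and 4164 FPKM in KO, 4817 and 4451 in HET and 5347, 2122 and 3049 in WT. Mpo had 490, 917 and 1068 FPKM in KO, 353 and 379 in HET and 652, 387 and 544 in WT. The WT libraries spanned the KO values for Elane, and for Mpo both HET libraries lay below every other library.

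Prtn3 had 1464, 1863 and 1759 FPKM in KO, 1164 and 1228 in HET and 2230, 1752 and 1503 in WT, with HET again below all others. Mpo and Prtn3 were the 2 of 7 members that did not overlap between HET and WT, beside 30.1% of genes. Ctsg had 536, 613 and 962 FPKM in KO, 1031 and 387 in HET and 1110, 208 and 1272 in WT, a spread within WT that covered every other library. Prss57 had 17.5, 44.0 and 69.6 FPKM in KO, 17.2 FPKM in HET 1, a listed 0 in HET 3, and 66.2, 11.2 and 6.84 FPKM in WT. A listed 0 in these tables can be a failed estimate.

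Ms4a3 had 628, 742 and 547 FPKM in KO, 390 and 595 in HET and 604, 295 and 312 in WT. Srgn had 905, 602 and 464 FPKM in KO, 659 and 627 in HET and 1020, 638 and 342 in WT. Both genes overlapped between the genotypes.

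**Figure D3:**
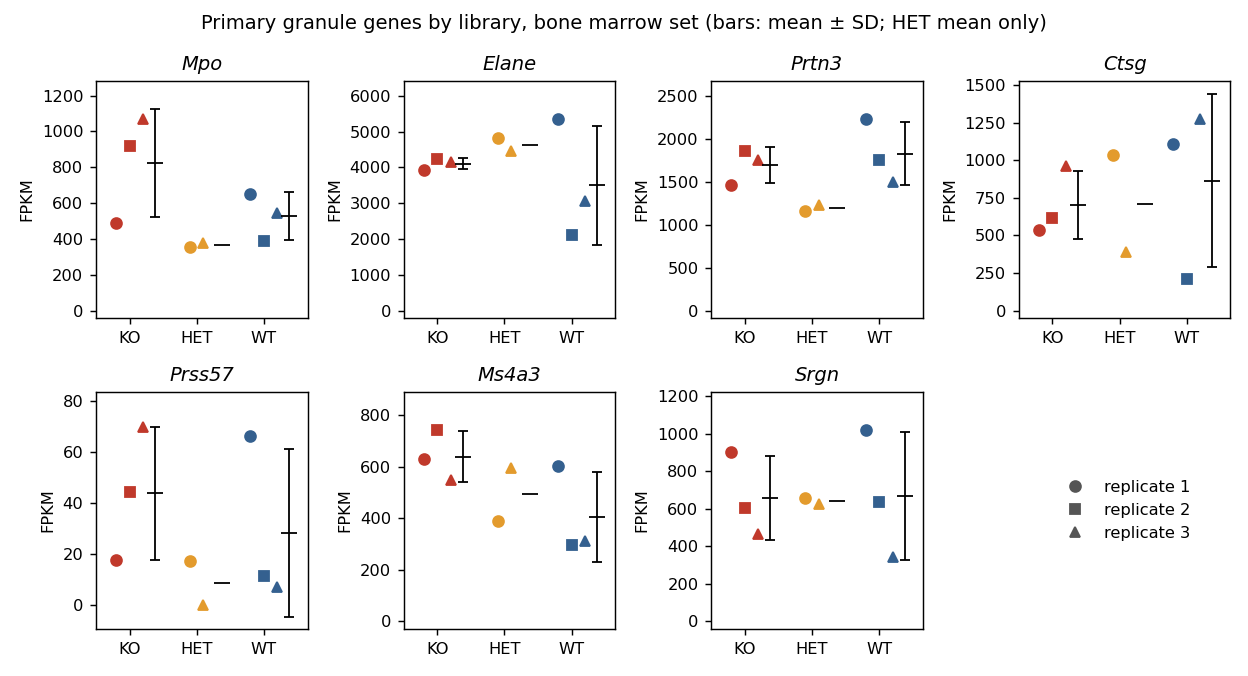
FPKM of the 7 primary granule genes in each bone marrow library (points, shaped by replicate number), with the mean ± SD of the 3 KO and 3 WT libraries and the mean of the 2 HET libraries. HET libraries are the lowest for Mpo and Prtn3 (2 of 7 members not overlapping between HET and WT, beside 30.1% of genes). By SD the WT libraries spread most for every member except Mpo.

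In KO against WT, limma called 0 of 7 members, beside 0% of the 7246 genes tested, so bone marrow gave no call for any gene in this comparison (5.11% of genes, and 0 of 7 members, had an unadjusted p under 0.05). Mpo averaged 825 ± 300 FPKM in KO and 528 ± 133 in WT (SD, n = 3 each), a log2 change of 0.60 (95% interval -0.24 to 1.44, limma adjusted p = 0.995). Ms4a3 averaged 639 ± 98.1 FPKM in KO and 404 ± 174 in WT, a log2 change of 0.73 (-0.13 to 1.59, adjusted p = 0.993). The intervals of Prss57 (-2.20 to 4.33) and Ctsg (-1.35 to 1.42) allow large changes in either direction.

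In HET against WT, limma called 0 of 7 members, beside 0.262% of genes, and 2 members did not overlap between the groups, beside 30.1% of genes. These were Mpo, with a log2 change of -0.50 (adjusted p = 0.616), and Prtn3, with -0.59 (95% interval -1.16 to -0.03, unadjusted p = 0.0420, limma adjusted p = 0.377). Prtn3 was the only member with an unadjusted p under 0.05, beside 12.4% of genes. The median log2 change over the members was -0.07, beside -0.99 over all genes tested, a shift that goes with the fewer genes listed above 0 in HET libraries. In KO against HET, limma called 0 of 7 members, beside 0.166% of genes. Mpo was 2.14 times as high in KO (95% interval 1.11 to 4.11, unadjusted p = 0.0264, limma adjusted p = 0.352). It was the only member with an unadjusted p under 0.05, beside 11.3% of genes. The median log2 change was 0.40 over the members and 0.83 over all genes tested. Groups did not overlap for Mpo, Prtn3 and Prss57, higher in KO libraries, and for Elane, lower in KO libraries (4 of 7, beside 27.9% of genes). For Prss57 this rests on 17.5 FPKM in KO 1 against 17.2 in HET 1, and on the listed 0 in HET 3. With 2 HET libraries these values describe the libraries.

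The difference between the sets in a genotype's change, in vitro minus bone marrow, was tested with limma in 1 model of both tables over the 6915 genes that passed in both. For KO against WT 0 of 7 members were called, beside 0.738% of genes, and 1 had an unadjusted p under 0.05, beside 7.85% of genes. Ms4a3 had the smallest p, with a difference of -0.84 (95% interval -1.63 to -0.06, unadjusted p = 0.0371, limma adjusted p = 0.558), and Mpo had -0.82 (-1.64 to 0.01, adjusted p = 0.639). For HET against WT 0 of 7 were called, beside 6.25% of genes, and none had an unadjusted p under 0.05, beside 19.2% of genes. Leaving out bone marrow HET 1 called Prss57 (difference 4.15, adjusted p = 0.0468), a value that then rests on a single HET library in which the gene is listed at 0.

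The make-up of the group differed by set more than by genotype. By mean FPKM the bone marrow order was Elane, Prtn3, Ctsg, Srgn, Mpo, Ms4a3 and Prss57. Elane exceeded Prtn3 in all 8 libraries (2.48 times by the means), Prtn3 exceeded Ctsg in all 8, and Ms4a3 exceeded Prss57 in all 8 (17.7 times). Ctsg, Srgn, Mpo and Ms4a3 could not be ordered, since each exceeded the next in 5 of 8 libraries. Elane took 46.1 to 49.3% of the 7 genes' summed FPKM in KO, 57.1 and 58.1% in HET and 39.2 to 48.5% in WT, beside 17.1 to 24.8%, 21.8 to 24.1% and 22.9 to 23.3% in the same genotypes in vitro. Mpo took 6.15 to 11.8%, 4.19 and 4.94%, and 5.91 to 7.73% in KO, HET and WT bone marrow, beside 23.3 to 25.0%, 25.7 to 27.2% and 23.0 to 27.3% in vitro.

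**Figure D4:**
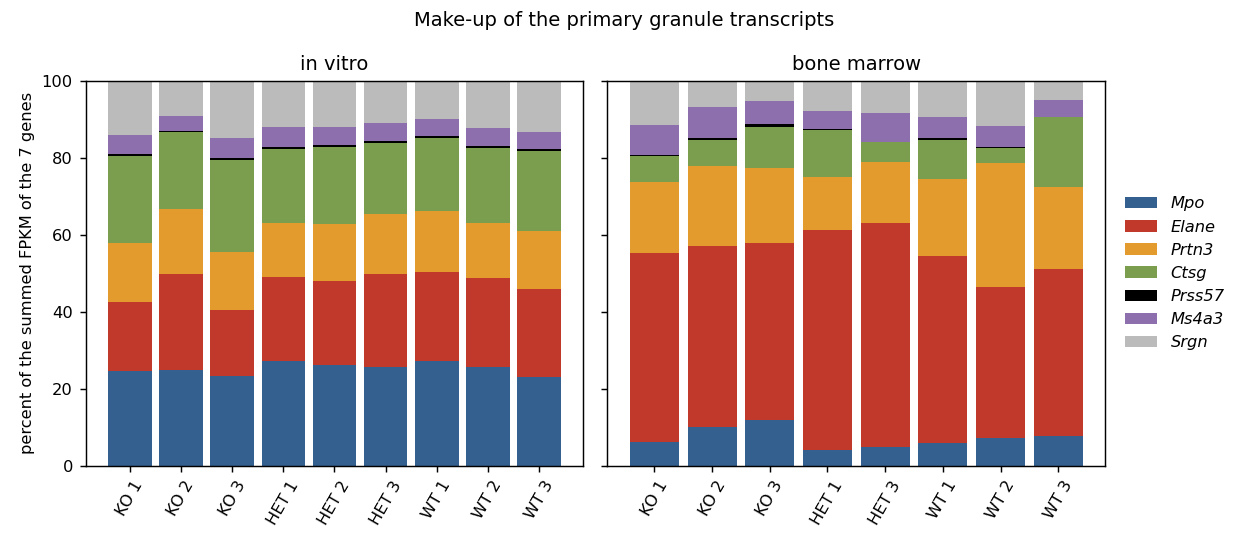
Share of each member in the summed FPKM of the 7 primary granule genes, in percent, for each in vitro library (left) and each bone marrow library (right). Elane takes 39.2 to 58.1% in bone marrow and 17.1 to 24.8% in vitro, and Mpo 4.19 to 11.8% and 23.0 to 27.3%.

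The ratio of Elane to Mpo in bone marrow was 8.01, 4.62 and 3.90 in KO, 13.6 and 11.8 in HET and 8.20, 5.48 and 5.61 in WT, so both HET libraries were above all others. Every bone marrow library exceeded every in vitro library, in which the ratio was at most 0.995. The tables may have been scaled separately, which leaves ratios within a library unaffected, and this contrast of sets was not tested. The 7 genes took 1.09 to 1.37% of summed FPKM in KO, 1.11 and 1.21% in HET and 0.866 to 1.68% in WT bone marrow, close to the shares in vitro.

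The 19 later granule genes varied widely between bone marrow libraries. They summed to 217303, 136179 and 171845 FPKM in KO, 135898 and 131481 in HET and 56502, 40521 and 2438 in WT. S100a8 alone had 138697, 83026 and 100020 FPKM in KO, 94378 and 90396 in HET and 33972, 28261 and 837 in WT. The primary granule genes summed to 7963, 9014 and 9034 FPKM in KO, 8432 and 7667 in HET and 11029, 5415 and 7027 in WT. Their ratio to the later genes was 0.0366, 0.0662 and 0.0526 in KO, 0.0620 and 0.0583 in HET and 0.195, 0.134 and 2.88 in WT. All WT libraries lay above all KO and HET libraries, and WT 3 stood far above the rest. Of the 17 later granule genes tested, all had a positive log2 change in KO against WT (median 3.62), and none was called (smallest limma adjusted p 0.317, beside 0% of genes called). In HET against WT 9 were positive and 8 negative (median 0.23) and none was called, although the sums, of which S100a8 was the largest term in HET libraries, were higher in both HET libraries than in every WT library.

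**Figure D5:**
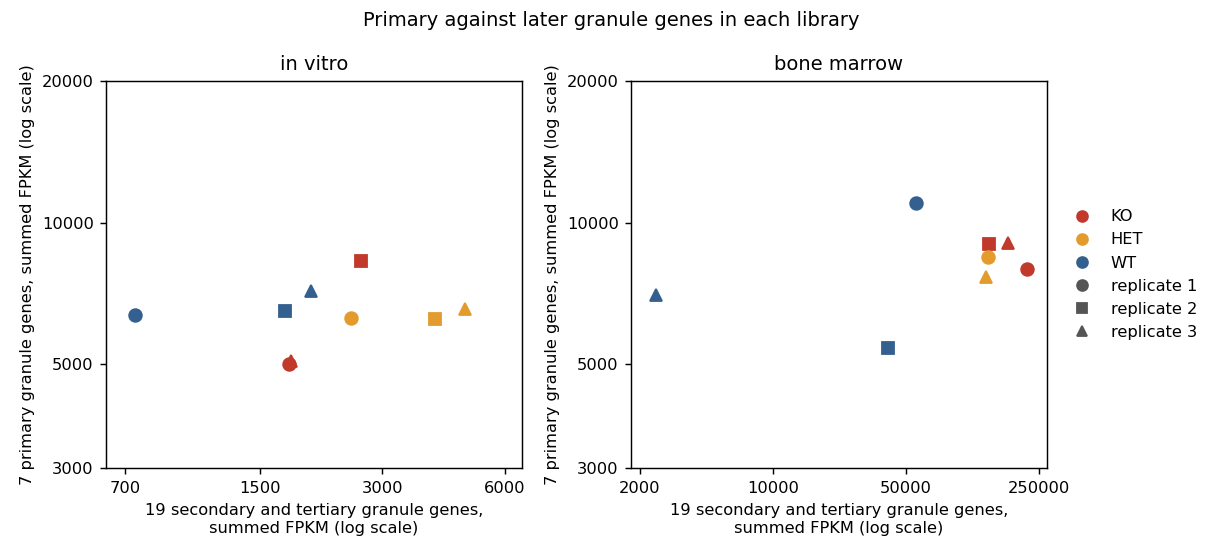
Summed FPKM of the 7 primary granule genes against that of the 19 later granule genes in each library (log axes), in vitro (left) and in bone marrow (right), coloured by genotype and shaped by replicate number. The primary sums stay between 4992 and 11029 FPKM, while the later sums run from 743 to 4784 FPKM in vitro and from 2438 to 217303 FPKM in bone marrow.

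In the bone marrow lists, 0 genes were called in KO against WT. Slpi, the secretory leukocyte protease inhibitor that blocks elastase and cathepsin G, had 1734, 1943 and 2321 FPKM in KO, 632 and 631 in HET and 2255, 2780 and 3884 in WT, with HET below all others. It fell in HET against WT by 2.20 (limma adjusted p = 0.0118) and rose in KO against HET by 1.65 (adjusted p = 0.0459). Both calls were lost without any of the 6 KO or WT libraries (adjusted p up to 0.0867 and 0.319) or with only the compared groups (0.140 and 0.168). The call in KO against HET was also lost with no filter (0.0704), quantile normalization (0.0648) and TPM (0.0645). Ctsd, the gene of the lysosomal protease cathepsin D, was listed at 0 in both HET libraries, at 265, 90.3 and 212 FPKM in KO and at 104, 99.0 and 181 in WT. It was called in HET against WT (adjusted p = 0.0222) and in KO against HET (adjusted p = 0.0296), calls also lost without any of those 6 libraries (up to 0.230 and 0.319) or with only the compared groups (0.140 and 0.168). The remaining pathway genes were not called in bone marrow.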

How the data were processed

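Total RNA came from TRIzol lysates and a VAHTS Universal V6 kit was used for the libraries, per the labels' protocols. The values the authors deposited are FPKM per gene, per the file headers: 22017 genes in the 9 in vitro libraries and 13195 genes in the 8 bone marrow libraries. Per the submitters' processing notes the genome was mm10. No aligner, annotation or strand setting is given in the sources used here. FPKM hold no counts, so neither count models nor depth intervals were possible, and a few very abundant transcripts lower the values of all others. Genotypes were compared within a set. Between sets, only the genotype changes were tested against each other (1 limma model of both tables), and ratios, shares and sums were described side by side with no test.

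Differences were tested on log2(FPKM + 1) with limma 3.58.1 (statmod 1.5.0, R 4.3.3), using its mean-variance trend and robust moderation. A gene entered if 3 or more libraries of the set reached FPKM of 1. The 3 genotypes of a set entered 1 model without a replicate block. Benjamini-Hochberg adjustment ran over every gene in the fit, and an adjusted p under 0.05 was a call. The script was tested on simulated data. The alternatives were a pseudocount of 0.1, filtering at FPKM of 5 or not at all, normalizing by quantiles or by median ratios, rescaling to TPM, fitting only the compared groups, a replicate block, and leaving out each library in turn.

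The members and the gene lists were chosen with earlier results of these data known. All members were named in each comparison. From each pathway list every called gene was named, or, where more were called, the 4 with the smallest p in HET against WT and in KO against WT in vitro, except for 1 gene that is not reported here. Likeness used the 5 largest Pearson coefficients over the 9 in vitro libraries. Neighbours were the 3 annotated genes on either side of the enzyme genes. RefSeq (GRCm38.p6) promoters were read for 6 of 7 members.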

Additional observations from a re-analysis of the deposited data

How the results depend on the processing

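The count of members called stayed at 0 in all 8 comparisons under every alternative that kept all libraries, the replicate block included. Leaving out a library gave 0 to 3 members in vitro in KO against WT, 0 to 2 in KO against HET and 0 to 1 for the difference between sets in HET against WT, and 0 elsewhere. Counts over all genes were less stable. Leaving out a library gave 66 to 475 genes (325 with all libraries) in KO against WT in vitro, 84 to 628 (400) in HET against WT, 73 to 344 (216) in KO against HET, 0 to 4 (0) in KO against WT in bone marrow, 0 to 323 (19) in HET against WT and 0 to 330 (12) in KO against HET. The lowest in vitro counts came without KO 3 (KO against WT) and without HET 3 (the other comparisons), and the highest without KO 2, KO 2 and WT 1. The highest in bone marrow came without WT 3 (KO against WT) and without HET 3, which leaves a lone HET library assumed to vary like the other groups; without any 1 KO or WT library at most 1 gene was called in either HET comparison. A pseudocount of 0.1 gave 35 and 31 genes in bone marrow HET against WT and KO against HET. No filter gave 152 and 250 in vitro in KO and HET against WT and 6 in bone marrow KO against HET, and a filter at FPKM of 5 gave 136 in vitro in KO against HET. Quantile normalization gave 2, 12 and 7 in bone marrow KO against WT, HET against WT and KO against HET. Only the compared groups gave 176 in vitro KO against WT, and 0 in bone marrow HET against WT and KO against HET.

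With the replicate block, KO against WT and HET against WT in vitro had 172 and 234 genes, and bone marrow HET against WT and KO against HET had 0 each. Under the block the calls of Ctsl (adjusted p = 0.0603), Cebpa (0.0700), Csf2rb (0.0613) and Il6ra (0.0700) in HET against WT, Itgam in HET (0.0560) and KO (0.0649) against WT, and Ctsc (0.0697) and Flt3 (0.0645) in KO against HET were lost, as were those of Slpi and Ctsd in bone marrow (0.0856 to 0.212). Pairing by number was looked at between libraries of different genotypes, on values with the mean of each genotype taken out. On these centred values, same-numbered libraries correlated at -0.30 to 0.18 in vitro and -0.02 to 0.03 in bone marrow. Differently numbered ones correlated at -0.33 to 0.37 and -0.04 to 0.02. The ranges overlapped, and with so few libraries a group they cannot decide whether the numbers pair the libraries.

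Some uncalled log2 changes of members changed sign. Under quantile normalization they were 0.092 (Ctsg, KO against WT), 0.14 (Mpo), 0.051 (Elane), 0.071 (Prtn3) and 0.050 (Ctsg) in HET against WT, and 0.024 (Srgn, KO against HET) in vitro. In bone marrow they were 0.063 (Prtn3, KO against WT), and 0.0090 (Elane) and 0.21 (Srgn) in KO against HET. With median-ratio factors they were -0.027 (Ms4a3, HET against WT) and 0.00024 (Prtn3, KO against HET) in vitro, and 0.12 (Prtn3, KO against WT), 0.058 (Elane) and 0.21 (Srgn) in KO against HET in bone marrow. As TPM they were 0.021 (Ctsg, KO against WT), 0.068 (Mpo) and 0.0040 (Prss57) in HET against WT, and -0.020 (Prss57, KO against HET) in vitro, and -0.14 (Ctsg) and -0.11 (Srgn) in KO against WT and -0.069 (Srgn, HET against WT) in bone marrow. The cause was not tested.

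Leaving out a library moved these in vitro log2 changes across 0. In KO against WT the ranges were -0.38 to 0.051 (Prtn3), -0.17 to 0.11 (Ctsg), -0.20 to 0.040 (Prss57) and -0.24 to 0.052 (Srgn). In HET against WT they were -0.024 to 0.014 (Mpo), -0.035 to 0.075 (Ms4a3) and -0.24 to 0.058 (Srgn). In KO against HET they were -0.29 to 0.14 (Prtn3), -0.067 to 0.22 (Ctsg), -0.13 to 0.11 (Prss57) and -0.024 to 0.025 (Srgn). In bone marrow they were -0.23 to 0.056 (Prtn3), -0.80 to 0.50 (Ctsg) and -0.35 to 0.44 (Srgn) in KO against WT, -0.91 to 0.63 (Ctsg) and -0.33 to 0.46 (Srgn) in HET against WT, and -0.60 to 0.81 (Ctsg) and -0.28 to 0.20 (Srgn) in KO against HET. With 2 or 3 libraries a group and no counts, small changes of the members were not detectable, least of all in bone marrow.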
